A study of Mus musculus with 30 samples.

Results

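Glomeruli of BTBR ob/ob mice were compared between 8 and 4 weeks of age, the window that the comparison's working name gives as the onset of overt diabetes. The comparison took every array of ob/ob mice at these ages, 4 arrays at 8 weeks and 3 at 4 weeks, which is 7 of the 30 arrays of the study, and all 24099 genes that passed a filter on low signal. All mice were female according to the labels. The ob/ob groups carry the leptin-deficient ob allele on the BTBR strain, and BTBR wild-type mice of the same ages, 3 at 4 weeks and 4 at 8 weeks, served to set the ob/ob difference against that of growing control mice. The labels name no treatment. The design text counts each array as a separate animal. Glomeruli were collected on sieves, and total RNA of each preparation was hybridised to a mouse Affymetrix array. The labels give no glucose, albumin or body weight for these animals, so their metabolic state at either age was not analysed here.

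The glomerulus is the filter of the kidney. Podocytes, fenestrated endothelium and the basement membrane between them form its wall, and mesangial cells hold the capillary tuft together. Mice without leptin overeat, become obese and insulin resistant, and on the BTBR background develop diabetes with glomerular disease that resembles early human diabetic nephropathy. The weeks between 4 and 8 are also a time of growth and sexual maturation in any mouse, so an ob/ob difference between these ages holds normal development as well.

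Values are deposited log2 signals. They reached 19.93, above the 16 bits of a scanner, so a step that no source used here names had widened the scale. Differences are therefore in log2 units, and no fold is given. The podocyte genes Nphs1 and Podxl read above background. Nphs1, which encodes nephrin of the slit diaphragm, read 9.70 to 10.75 and Podxl 14.52 to 15.73 in the 7 arrays. Intron control probe sets had medians of 6.05 to 6.26 there. Tubule signal was present too, and it was higher. The proximal tubule list had array means of 15.40 to 15.58 and the distal nephron list 11.30 to 11.83, against 9.82 to 10.42 for the podocyte list. These levels do not give the share of the RNA that was glomerular. Slc34a1, the proximal tubule phosphate transporter, read 19.38 to 19.50. In bulk RNA, a different number of cells of a type and a different amount of RNA per cell cannot be told apart. Lep read 4.88 to 5.50 in the 7 arrays, below the intron control medians, and the wild-type arrays overlapped with them, so it does not check the genotype.

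Correlations between the 7 arrays across genes were 0.987 to 0.996, and the separation of exon from intron controls, a measure of array quality, was 0.826 to 0.854. A pair of arrays stood apart in an X-linked RNA, although every mouse is labelled female. Xist, the RNA that coats the inactive X chromosome, read 7.66 in ob/ob 8 week replicate 1 and 8.17 in wild-type 8 week replicate 3, against 15.03 to 15.83 in the other 12 arrays of 4 and 8 weeks. The Y-linked genes Eif2s3y, Kdm5d and Uty read 5.33 to 5.60, 4.65 to 4.94 and 4.66 to 4.85 in all 14 arrays, with these 2 inside the range of the rest. Kdm6a, an X-linked gene that escapes inactivation, read 9.68 and 9.70 in the 2 arrays and 10.33 to 10.75 in the others. Xist was thus low in arrays whose Y-linked genes read as in the rest, and the cause was not tested. Replicate 3 of 8 weeks and replicates 1 and 2 of 4 weeks also stood apart within ob/ob. In them 197, 347 and 244 genes lay at least 1 log2 unit from the mean of the other arrays of their group, against 41 to 97 in the rest. List medians and several genes are also given without one of these arrays.

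**Figure D1:**
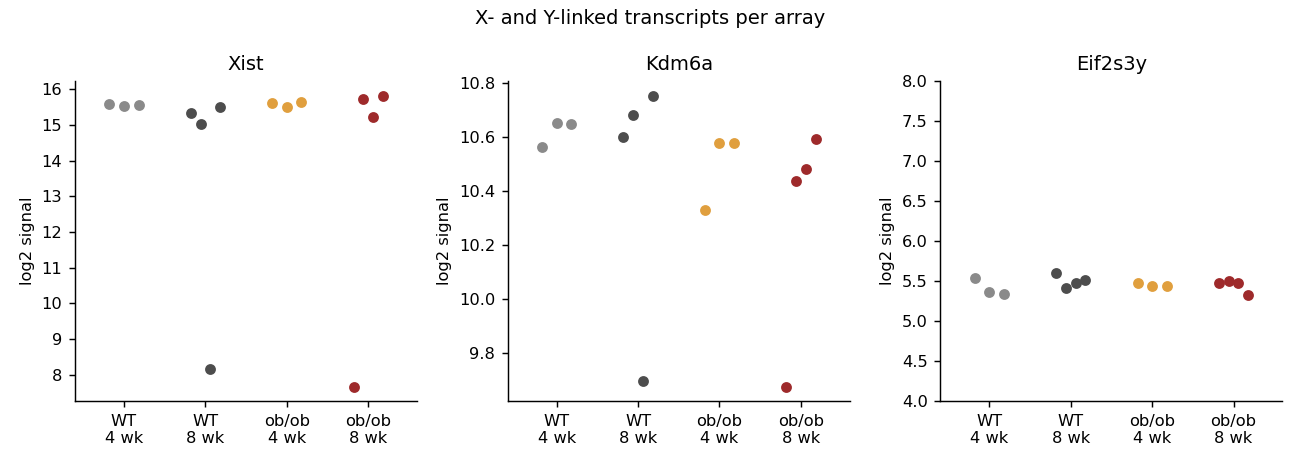
Log2 signal of Xist, of the X-linked gene Kdm6a and of the Y-linked gene Eif2s3y (y axes) in each array of the 4 groups of 4 and 8 weeks (x axis), 1 point per array. The ob/ob 8 week array at 7.66 and the wild-type 8 week array at 8.17 lie far below the other 12 for Xist and lowest for Kdm6a, while Eif2s3y stays between 5.33 and 5.60 throughout.

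No gene passed the test between 8 and 4 weeks in ob/ob. Of 24099 genes, 0 (0%) had an adjusted p under 0.05 with limma fitted to all 30 arrays, and the smallest adjusted p was 0.212. At an unadjusted p under 0.05 there were 869 genes (3.61%), 332 with a higher and 537 with a lower mean at 8 weeks (1.38% and 2.23%). The 8 week arrays lay wholly above the 4 week arrays for 930 genes (3.86%) and wholly below for 1006 (4.17%). The median standard error of a difference was 0.148 log2 units and the median difference of all genes was -0.02. In wild type the same ages gave 34 genes (0.141%), 2 higher and 32 lower at 8 weeks (0.0083% and 0.133%), and 1243 at an unadjusted p under 0.05 (5.16%). The test of whether the 4 to 8 week difference itself differed between genotypes gave 0 genes (0%), with 754 at an unadjusted p under 0.05 (3.13%) and a smallest adjusted p of 0.897. Weights for array quality gave 16 genes in ob/ob, 8 higher and 8 lower, and adjusting for the exon and intron control separation or for proximal tubule signal gave 1, Apob, in each. The unadjusted count of 869 in ob/ob depended on the setting. It was 2505 with array weights, 1850 with only the arrays compared and 1105 without the 4 ob/ob arrays of 24 weeks. Those 4 arrays, whose control separation was 0.78, 0.78, 0.86 and 0.76, shared in the estimate of spread. Without replicate 1 of 8 weeks, the array with low Xist, 1 gene passed, and without replicate 3 of 8 weeks or replicate 1 of 4 weeks there were 0, with 785 and 650 at an unadjusted p under 0.05. Genes below are therefore described by their arrays and by the size of the difference, and none is said to have changed in ob/ob.

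The largest difference in ob/ob belonged to Cyp24a1, the mitochondrial hydroxylase that inactivates vitamin D and its active form. Its signal was 8.34, 9.67 and 7.60 in the 4 week arrays and 12.74, 10.82, 13.34 and 13.24 in the 8 week arrays. All 8 week arrays lay above all 4 week arrays, and replicate 2 was the lowest of the 8 week arrays. The difference was 4.00 ± 0.89 log2 units (SE; 95% interval 2.16 to 5.84; limma adjusted p = 0.689), and it was 3.53 to 4.57 with any 1 of the 7 arrays left out. Wild-type arrays spread from 7.11 to 9.97 at 4 weeks and from 7.04 to 10.16 at 8 weeks, a difference of 0.58 ± 0.89, and the ob/ob minus wild-type difference of 3.42 ± 1.26 did not pass either (limma adjusted p = 0.9999). Cyp27b1, the renal enzyme that makes active vitamin D, read 10.66 to 12.12 at 4 weeks and 10.28 to 12.88 at 8 weeks. Its groups overlapped fully, with a difference of 0.14 ± 0.86 (95% interval -1.63 to 1.91), which leaves room for differences of over 1 unit in either direction.

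Of the 21 tested genes of vitamin D and mineral transport, 11 had a positive and 10 a negative difference, with a median of 0.03. Casr, the calcium-sensing receptor, read 10.21, 10.47 and 10.68 at 4 weeks and 9.93, 9.42, 9.16 and 9.33 at 8 weeks, so that its groups did not overlap either, on the low side (-0.99 ± 0.37, limma adjusted p = 0.999). Vdr, the vitamin D receptor, differed by 0.34 ± 0.23, and the distal calcium channel Trpv5 by 0.51 ± 0.51. Slc34a1 differed by -0.05 ± 0.09, but its signal lay close to the top of the scale, where a difference may not be measurable.

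**Figure D2:**
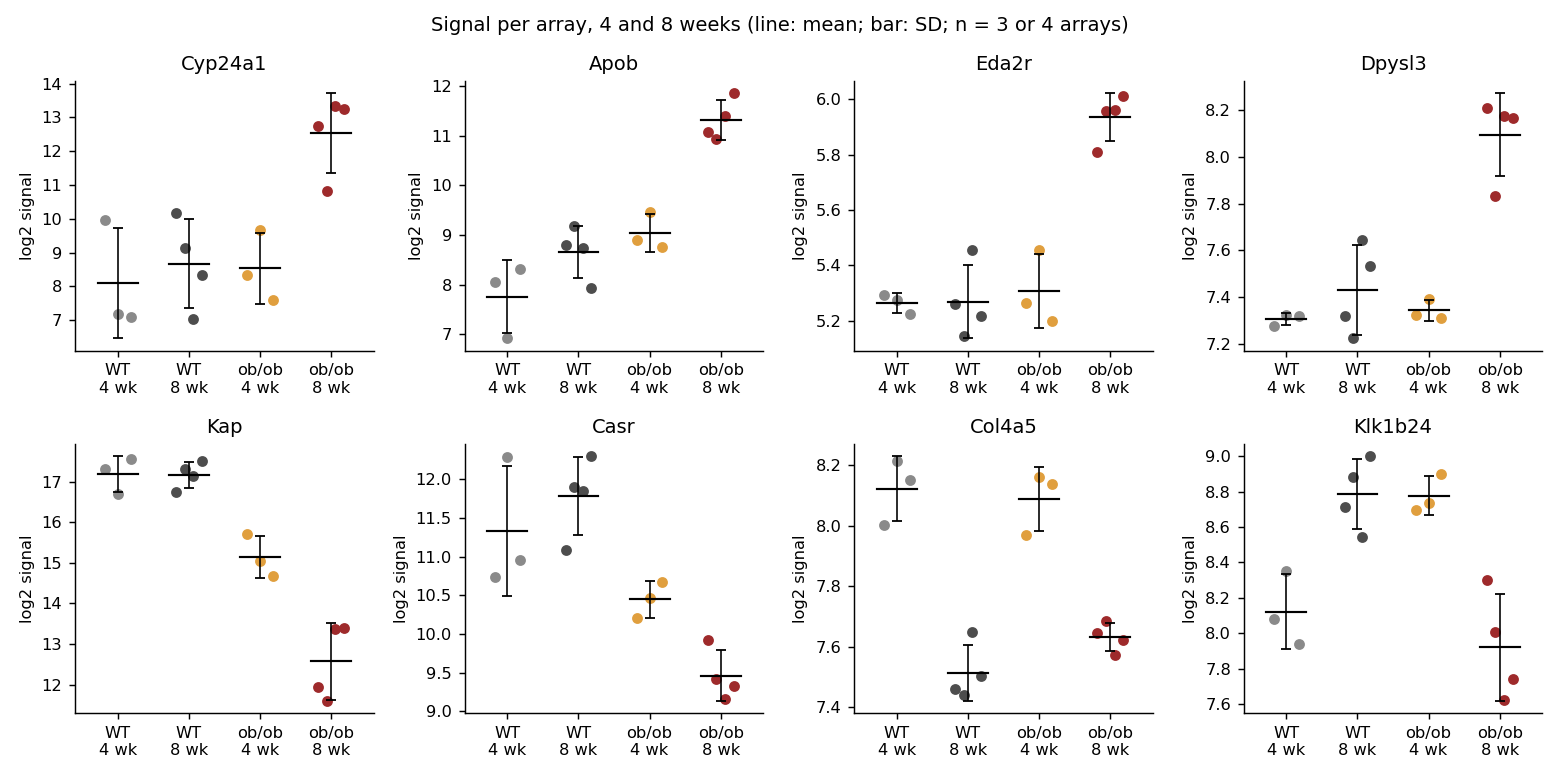
Log2 signal (y axes) of 8 genes in each array of wild type and ob/ob at 4 and 8 weeks (x axis), with 1 point per array, a line at the group mean and a bar of 1 SD (n = 3 at 4 weeks, 4 at 8 weeks). Cyp24a1, Apob, Eda2r and Dpysl3 lie higher in every ob/ob array of 8 weeks than of 4 weeks, Kap, Casr, Col4a5 and Klk1b24 lower, and Col4a5 does so in wild type as well.

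Apob, the structural protein of very low density lipoprotein, had signals of 8.89, 9.47 and 8.76 at 4 weeks and 11.07, 10.94, 11.39 and 11.86 at 8 weeks. The gap between the highest 4 week and the lowest 8 week array was over 1 unit. It differed by 2.28 ± 0.44 log2 units (95% interval 1.37 to 3.18, limma adjusted p = 0.222), and by 0.90 ± 0.44 in wild type. Its call turned on the settings, since the limma adjusted p was 0.0132 with array weights, 0.00549 with the control separation as a covariate and 0.0222 with proximal tubule signal as a covariate, at differences of 2.03, 2.21 and 2.31.

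Eda2r, a receptor of the tumour necrosis factor family that binds ectodysplasin A2, was at background level, with the arrays of each age close together. It read 5.27, 5.46 and 5.20 at 4 weeks and 5.81, 5.96, 5.96 and 6.01 at 8 weeks, all below the medians of the intron controls. The difference was 0.63 ± 0.12 (limma adjusted p = 0.222) in ob/ob and 0.01 ± 0.12 in wild type. The gene is X-linked, and without replicate 1, the array with low Xist, the difference was 0.67. Dpysl3, a cytoskeletal protein of the collapsin response mediator family, read 7.32, 7.39 and 7.31 at 4 weeks and 8.21, 7.83, 8.17 and 8.17 at 8 weeks. Its 4 week arrays lay close together and every 8 week array lay above them (0.75 ± 0.20, against 0.12 ± 0.20 in wild type). Etv5, an ETS transcription factor, differed by 0.76 ± 0.18 against a wild-type value of 0.19 ± 0.18, and Pigz, a mannosyltransferase of the glycosylphosphatidylinositol anchor pathway, by 0.41 ± 0.09 and 0.11 ± 0.09. The limma adjusted p was 0.999, 0.789 and 0.734 for Dpysl3, Etv5 and Pigz in ob/ob. With array weights Eda2r, Dpysl3, Etv5 and Pigz passed, at limma adjusted p = 0.0243, 0.0243, 0.0308 and 0.0308.

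Several of the genes with the smallest p in ob/ob had a like difference in wild type, which describes both genotypes at these ages. Col4a5, the alpha 5 chain of type IV collagen, read 7.97, 8.16 and 8.14 at 4 weeks and 7.64, 7.69, 7.57 and 7.62 at 8 weeks in ob/ob, a difference of -0.46 ± 0.10 (limma adjusted p = 0.689), and it was -0.46 without the array with low Xist, this gene being X-linked too. In wild type it fell by 0.61 ± 0.10 and passed the test (limma adjusted p = 0.00592). Cyp4a12a, an androgen-responsive fatty acid hydroxylase, differed by 1.43 ± 0.36 in ob/ob and rose by 1.90 ± 0.36 in wild type (limma adjusted p = 0.0211). The ferroxidase Cp, ceruloplasmin, differed by 1.25 ± 0.33 and 1.00 ± 0.33 in ob/ob and wild type, Afm, the vitamin E binding protein afamin, by -1.11 ± 0.29 and -0.99 ± 0.29, and Tet1, a DNA demethylating dioxygenase, by -0.39 ± 0.10 and -0.44 ± 0.10. With array weights Col4a5 and Afm passed in ob/ob as well, at limma adjusted p = 0.00783 and 0.0243. The genotype differences of these 5 genes were -0.48 to 0.25 log2 units, with limma adjusted p = 0.9999 for each.

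Kap, the kidney androgen-regulated protein of the proximal tubule, had the most negative difference of all tested genes in ob/ob. It read 15.70, 15.04 and 14.67 at 4 weeks and 11.94, 11.59, 13.38 and 13.40 at 8 weeks. Every 8 week array lay more than 1 unit below every 4 week array, and replicates 1 and 2 lay below 3 and 4. The difference was -2.56 ± 0.95 (95% interval -4.52 to -0.60, limma adjusted p = 0.999). In wild type Kap lay between 16.69 and 17.56 at both ages, a difference of -0.01 ± 0.95. The ob/ob arrays of 4 weeks already lay below all wild-type arrays. The genotype difference of -2.55 ± 1.35 did not pass (limma adjusted p = 0.9999). The proximal tubule list, 23 tested genes of which 9 had a positive difference in ob/ob, had a median of -0.03. Its array means were 15.44 to 15.53 at 4 weeks and 15.40 to 15.58 at 8 weeks, so they overlapped fully between the ages. In wild type 6 of the 23 were positive and the median was -0.29, with array means of 15.15 to 15.74 and then 14.93 to 15.64. Of the 17 tested sex hormone responsive kidney genes, Kap among them, 7 had positive and 10 negative differences in ob/ob, and the median was -0.05.

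Glomerular cell types were compared next. Mesangial and smooth muscle genes lay higher at 8 weeks, with 11 of 14 tested members positive and a median of 0.30 against -0.02 over all tested genes. The mean of the list per array was 9.55, 9.81 and 9.82 at 4 weeks and 10.20, 10.08, 10.30 and 10.07 at 8 weeks, without overlap. The median was 0.24 without replicate 1 of 8 weeks, 0.29 without replicate 3 and 0.20 without replicate 1 of 4 weeks. Values for 6 members did not overlap on the high side, where 3.86% of all genes did so. Itga8, the integrin alpha 8 of mesangial cells, read 11.84, 12.12 and 12.12 and then 13.30, 13.62, 13.87 and 13.41, a difference of 1.52 ± 0.78. Pdgfrb, the receptor through which platelet-derived growth factor recruits mesangial cells, differed by 1.06 ± 0.52 and the intermediate filament Des by 0.92 ± 0.44, of which replicate 3 set part (0.70 without it). The contractile genes Acta2, Tagln, Myh11, Cnn1 and Myl9, typical of smooth muscle, differed by -0.02, 0.13, -0.03, 0.30 and 0.70. Members of the list ranged from -0.44 for Angpt1 to 1.52 for Itga8. No member passed (smallest limma adjusted p 0.999). In wild type 6 of the 14 were positive and the median was -0.04, with array means of 9.39 to 9.80 at 4 weeks and 9.12 to 9.88 at 8 weeks. None passed the test of the genotype difference.

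Endothelial genes had a median of 0.33, with 18 of 19 positive, and 5 without overlap on the high side, where 3.86% of all genes were. Eng, the endothelial coreceptor endoglin, read 13.96, 13.95 and 14.16 at 4 weeks and 14.70, 15.02, 15.64 and 14.82 at 8 weeks (1.02 ± 0.48), and Kdr, the main receptor of vascular endothelial growth factor, 13.18 to 13.28 and then 13.72 to 14.81 (0.92 ± 0.55). Podocyte genes had a median of 0.23, with 22 of 25 positive. Nphs1 differed by 0.53 ± 0.60 and Wt1, the podocyte transcription factor, by 0.04 ± 0.48, with 95% intervals of -0.71 to 1.76 and -0.95 to 1.03, so these arrays do not exclude a difference of either sign in either gene. Wild type had medians of 0.29 and 0.32 for the endothelial and podocyte lists, with 16 of 19 and 22 of 25 positive. Without replicate 3 the ob/ob medians were 0.22 and 0.18, and without replicate 1 of 4 weeks 0.26 and 0.13. The podocyte median was 0.34 without replicate 3 of 4 weeks and 0.14 with array weights. Both genotypes thus had positive medians for these lists. Parietal epithelial genes were split, 6 positive and 6 negative.

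**Figure D3:**
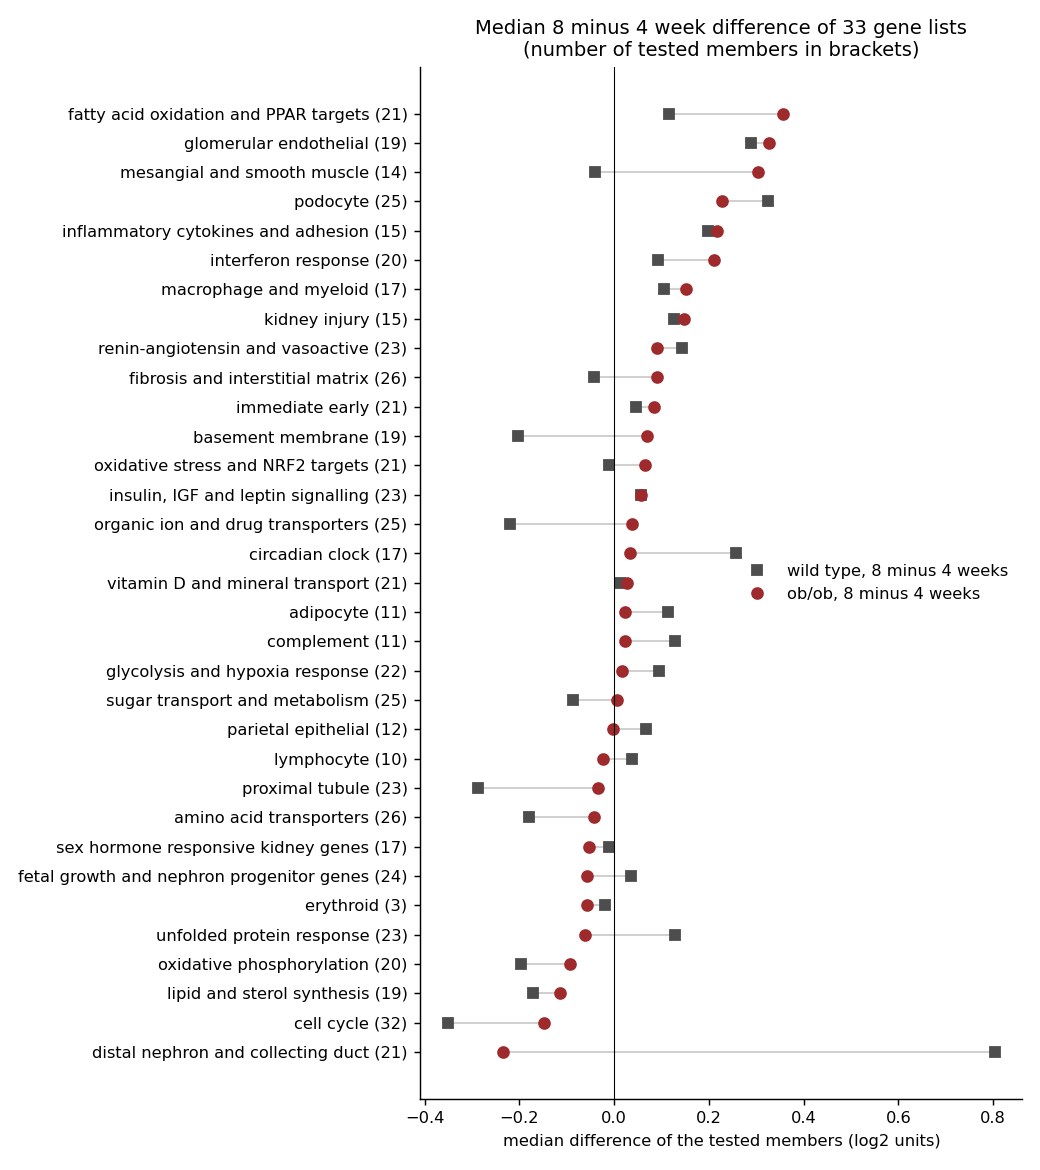
Median 8 minus 4 week difference (x axis, log2 units) over the tested members of each of 33 gene lists (y axis, with the number of tested members), for ob/ob (circles) and wild type (squares). Mesangial and smooth muscle genes have medians of 0.30 for ob/ob and -0.04 for wild type, and distal nephron genes -0.24 and 0.80.

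Basement membrane chains were described by type. The chains of the mature glomerular collagen network had negative differences in both genotypes. Col4a3 differed by -0.22 ± 0.27 in ob/ob and -0.32 ± 0.27 in wild type, Col4a4 by -0.28 ± 0.19 and -0.32 ± 0.19, and Col4a5 as given above. The chains of the widespread collagen network had positive differences in ob/ob and negative ones in wild type, and neither passed. Col4a1 read 10.27, 10.20 and 10.47 at 4 weeks and 10.43, 10.25, 10.85 and 10.56 at 8 weeks in ob/ob (0.21 ± 0.35, and 0.10 without replicate 3), against -0.78 ± 0.35 in wild type. Col4a2 differed by 0.27 ± 0.36 and -0.88 ± 0.36. Nidogens, which link collagen to laminin, had the same signs, Nid1 by 0.88 ± 0.41 and -0.44 ± 0.41, and Nid2 by 0.12 ± 0.17 and -0.74 ± 0.17. Without replicate 1 of 4 weeks the ob/ob value of Nid2 was 0.021. The genotype difference was 0.99 ± 0.50 for Col4a1, 1.33 ± 0.58 for Nid1 and 0.86 ± 0.24 for Nid2, and none passed over all genes (limma adjusted p = 0.9999 for each). Over the whole list of 19 genes, 11 differences were positive in ob/ob with a median of 0.07, and 4 in wild type with a median of -0.20.

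Matrix genes outside the basement membrane followed no single direction. Of 26 tested, 14 were positive, with a median of 0.09, 7 without overlap on the high side and 3 on the low side, where 3.86% and 4.17% of all genes were. The small proteoglycan Bgn read 12.87, 13.93 and 13.53 at 4 weeks and 14.11, 14.31, 15.35 and 14.50 at 8 weeks (1.12 ± 0.40, 0.86 without replicate 3). The gelatinase Mmp2 differed by 0.84 ± 0.38 in ob/ob and -0.53 ± 0.38 in wild type, Tgfbr2, a receptor of transforming growth factor beta, by 0.53 ± 0.25 and -0.05 ± 0.25, and Ccn2, connective tissue growth factor, by 1.13 ± 0.61 and 0.73 ± 0.61. The 5 tested fibrillar collagen genes, Col1a1, Col1a2, Col3a1, Col5a1 and Col5a2, differed by -0.06, -0.14, -0.20, 0.01 and -0.24.

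Kidney injury genes had a median of 0.15, with 13 of 15 positive (12 without replicate 3), and 0.13 in wild type with 9 positive. Their mean per array was 7.31, 7.27 and 7.41 at 4 weeks and 7.57, 7.63, 7.77 and 7.62 at 8 weeks, without overlap. Vcam1, an adhesion molecule for leukocytes, read 6.79, 7.10 and 6.85 and then 7.82, 7.59, 7.61 and 7.77, and all 8 week arrays lay above all 4 week arrays (0.79 ± 0.27, and 0.44 ± 0.27 in wild type). Tnfrsf12a, the receptor of the cytokine TWEAK, read 6.99, 6.64 and 6.98 and then 7.55, 7.88, 7.91 and 7.73 (0.89 ± 0.34, against -0.09 ± 0.34 in wild type). Krt8, an intermediate filament of stressed and of parietal epithelium, differed by 0.56 ± 0.27, against -0.40 ± 0.27 in wild type. Havcr1, the proximal tubule injury gene also called Kim1, was at the intron control level in all 7 arrays (5.81 to 5.98, difference -0.04 ± 0.43), and Lcn2 differed by 0.36 ± 0.31. The limma adjusted p was 0.999 for each of these 5 genes in ob/ob.

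All 15 tested inflammatory cytokine and adhesion genes had a positive difference, with a median of 0.22, where 10447 of all 24099 genes were positive. Of the 15, 12 were also positive in wild type, with a median of 0.20. Cx3cl1, the membrane-bound chemokine fractalkine, read 7.42, 7.75 and 7.60 at 4 weeks and 7.84, 8.10, 8.94 and 8.08 at 8 weeks (0.65 ± 0.24, 0.42 without replicate 3, and 0.38 ± 0.24 in wild type). Nfkbia, the inhibitor of nuclear factor kappa B, differed by 0.67 ± 0.32 in ob/ob and 0.72 ± 0.32 in wild type. Sele, E-selectin, differed by 0.43 ± 0.20 with replicate 3 at 6.92 and the other 8 week arrays at 5.68 to 5.86, and by 0.14 without that array. Without replicate 3 the list had 12 positive members and a median of 0.14, and with array weights 13 and 0.12. Secreted cytokines such as Ccl2, Il1b and Cxcl10 were at background (4.69 to 6.02 over the 7 arrays) and differed by 0.09, 0.02 and 0.07. Interferon response genes had a median of 0.21, with 18 of 20 positive, and 0.12 with 15 positive without replicate 3. In wild type 14 of these 20 were positive, with a median of 0.09. Among 17 macrophage and myeloid genes, 13 were positive in ob/ob with a median of 0.15, and 14 in wild type with a median of 0.105. Mrc1, the mannose receptor, read 7.85, 8.40 and 8.23 and then 9.31, 9.48, 9.70 and 8.99 (1.21 ± 0.49), and Cd14 differed by 0.48 ± 0.18. The pan-macrophage gene Adgre1 read 5.34 to 5.95, below the intron control medians, where a difference may not be seen. The array means of that list were 6.41 to 6.57 at 4 weeks and 6.44 to 7.10 at 8 weeks, with replicate 3 highest. The share of these cells in the inflammatory values was not tested.

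**Figure D4:**
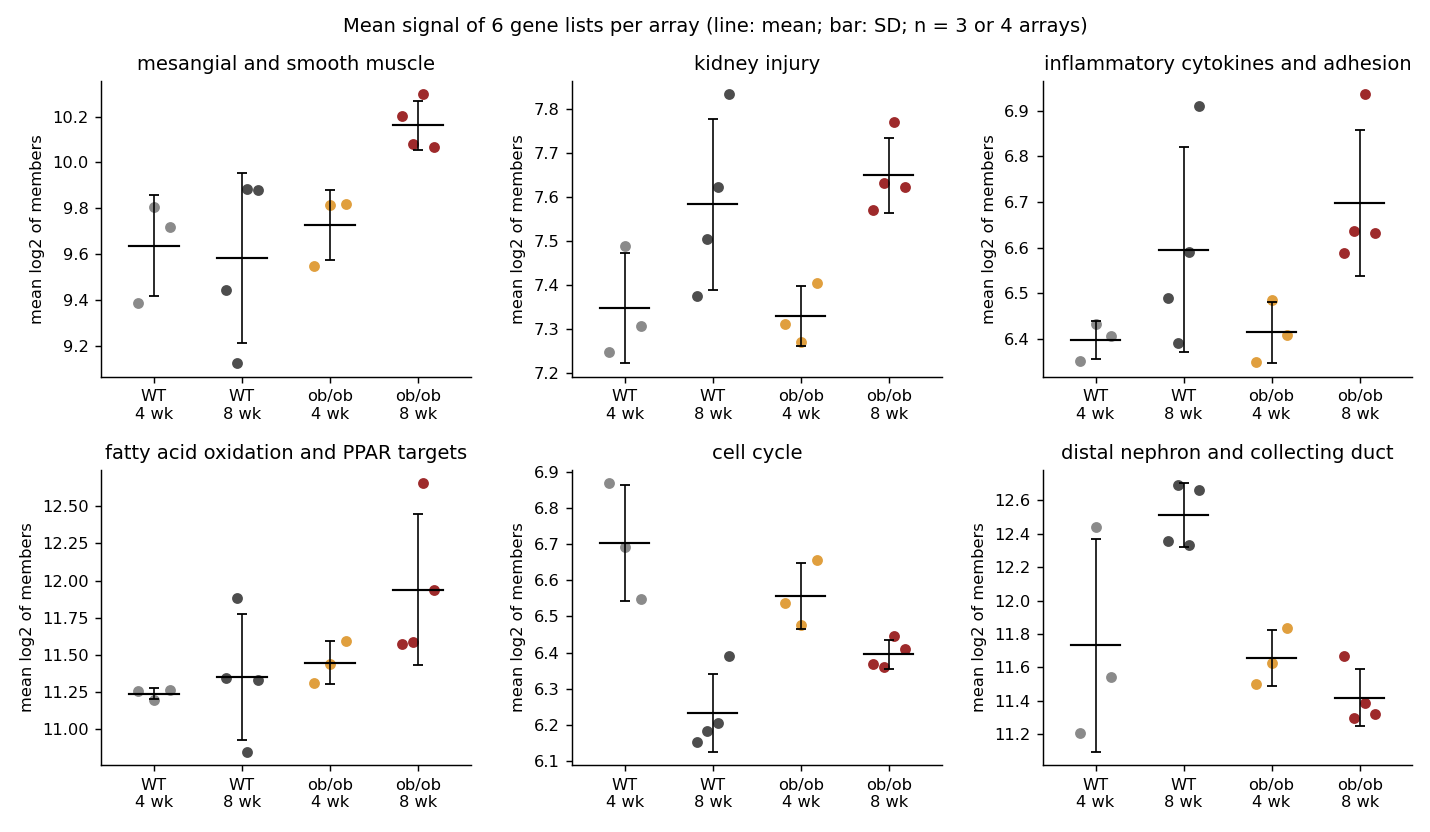
Mean log2 signal of the tested members (y axes) of 6 gene lists in each array of wild type and ob/ob at 4 and 8 weeks (x axis), with 1 point per array, a line at the group mean and a bar of 1 SD (n = 3 at 4 weeks, 4 at 8 weeks). The ob/ob groups do not overlap for mesangial, injury, inflammatory and cell cycle genes, and for fatty acid oxidation genes 1 array of 8 weeks lies at 12.66, above the other 3 at 11.57 to 11.94.

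Genes of fatty acid oxidation and targets of the lipid-sensing receptor PPAR had the highest ob/ob median of the 33 lists, 0.36, with 20 of 21 positive. In wild type 13 of the 21 were positive, with a median of 0.12. Replicate 3 carried much of the ob/ob median: the array means were 11.31, 11.44 and 11.60 at 4 weeks and 11.57, 11.59, 12.66 and 11.94 at 8 weeks. Pdk4, the kinase that shuts pyruvate out of the citric acid cycle, read 9.30, 9.14 and 9.51 and then 9.40, 9.88, 13.59 and 10.14, so that 1 array made most of its difference of 1.43 ± 0.85. Without replicate 3 the list had 18 positive members and a median of 0.22, and without replicate 1, 20 and 0.58. Its first rank was lost without replicate 3, since the mesangial list then had a median of 0.29. The same array had the highest adipocyte mean, 6.20 against 5.75 to 5.83 in the other 8 week arrays, through Fabp4 at 11.67, Pparg at 7.29 and Lipe at 8.33, while the fat cell genes Adipoq and Plin1 were at 4.62 and 5.15, as low as in the others. It also had the highest Nr1d1, a clock gene, at 10.79 against 8.04 to 9.06. Whether these share a source was not tested.

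Plin2, which coats lipid droplets, was the PPAR target with the smallest p. It read 9.45, 9.25 and 9.52 at 4 weeks and 9.72, 9.83, 10.93 and 10.27 at 8 weeks, without overlap (0.78 ± 0.29, and 0.53 without replicate 3). In wild type it differed by -0.11 ± 0.29. Acot2, a mitochondrial thioesterase, differed by 1.27 ± 0.54, and the 4 week array of replicate 1 at 12.57 lay below the other 6 at 14.43 to 15.88 (0.65 without it). Lipid and sterol synthesis genes had 15 of 19 negative differences, a median of -0.11 (14 and -0.17 in wild type) and array means of 9.51 to 9.58 at 4 weeks and 9.35 to 9.48 at 8 weeks, without overlap. Cyp51, the lanosterol demethylase of cholesterol synthesis, differed by -0.65 ± 0.23 in ob/ob and -0.67 ± 0.23 in wild type. Oxidative phosphorylation genes were negative in 18 of 20, with a median of -0.09, and in 20 of 20 in wild type, with a median of -0.20.

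Transporters of organic ions and drugs differed in both directions. Of 25 tested, 14 were positive, and 3 had an unadjusted p under 0.05 on the high side and 1 on the low side, where 1.38% and 2.23% of all genes did. Slco1a6, an organic anion transporter, read 11.97, 11.98 and 11.15 at 4 weeks and 12.94, 12.74, 13.72 and 13.24 at 8 weeks, without overlap (1.46 ± 0.47, and 0.62 ± 0.47 in wild type). The efflux pumps Abcc4 and Abcb1a differed by 0.83 ± 0.26 and 0.74 ± 0.24, and by 0.37 ± 0.26 and 0.33 ± 0.24 in wild type. Slc22a29, of the organic anion transporter family, differed by -1.11 ± 0.43, and by -0.91 ± 0.43 in wild type. Amino acid transporters and genes of sugar transport and metabolism had medians of -0.04 and 0.01. Slc5a2, the glucose transporter SGLT2 of the proximal tubule, differed by -0.05 ± 0.17 (95% interval -0.41 to 0.30), and by -0.53 ± 0.17 in wild type. Its genotype difference of 0.48 ± 0.24 did not pass (limma adjusted p = 0.9999). Txnip, a glucose-responsive inhibitor of thioredoxin, differed by 0.44 ± 0.46, and by 0.61 ± 0.46 in wild type. In ob/ob its replicate 3 read 15.99 and the other 8 week arrays 14.54 to 15.02 (a difference of 0.13 without replicate 3).

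Cell cycle genes held most of the calls that wild type gave in any list. In wild type, 10 of the 32 tested cell cycle genes fell from 4 to 8 weeks (0.133% of all genes were called lower), all 32 had a negative difference and the median was -0.35. In ob/ob, 25 of 32 were negative, the median was -0.15, none passed, and 9 had an unadjusted p under 0.05 on the low side, where 2.23% of all genes did. That count was 5 without replicate 1 or 2 of 8 weeks, 15 and 4 without replicates 2 and 3 of 4 weeks, and 5 with only the arrays compared. The mean of the list per array was 6.54, 6.48 and 6.66 at 4 weeks and 6.37, 6.36, 6.45 and 6.41 at 8 weeks in ob/ob. In wild type it was 6.87, 6.69 and 6.55 and then 6.15, 6.18, 6.20 and 6.39. The ob/ob arrays of 8 weeks thus lay below those of 4 weeks without overlap, as in wild type, over a shorter distance.

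The promoters of Top2a, Kif11 and Mki67, which are among the 10 genes called in wild type, are shown because a motif of cell cycle promoters lies in each. The sequences are the 250 bases before the RefSeq start site on the gene's strand, 5′ to 3′, from GRCm38.p6, and capitals mark TTTGAA, the core of the cell cycle genes homology region, or its reverse complement.
Top2a (chr11:99024190-99024439, minus strand): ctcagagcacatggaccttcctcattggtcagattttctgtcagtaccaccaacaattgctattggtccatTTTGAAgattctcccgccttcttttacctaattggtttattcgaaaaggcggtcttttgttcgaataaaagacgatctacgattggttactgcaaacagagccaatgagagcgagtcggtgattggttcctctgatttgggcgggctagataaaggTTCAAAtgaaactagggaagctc
Kif11 (chr19:37376132-37376381, plus strand): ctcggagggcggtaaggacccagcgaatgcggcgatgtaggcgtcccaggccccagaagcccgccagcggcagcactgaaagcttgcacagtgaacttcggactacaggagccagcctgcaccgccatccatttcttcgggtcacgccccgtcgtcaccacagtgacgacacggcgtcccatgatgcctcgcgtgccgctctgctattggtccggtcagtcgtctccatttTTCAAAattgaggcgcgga
Mki67 (chr7:135716380-135716629, minus strand): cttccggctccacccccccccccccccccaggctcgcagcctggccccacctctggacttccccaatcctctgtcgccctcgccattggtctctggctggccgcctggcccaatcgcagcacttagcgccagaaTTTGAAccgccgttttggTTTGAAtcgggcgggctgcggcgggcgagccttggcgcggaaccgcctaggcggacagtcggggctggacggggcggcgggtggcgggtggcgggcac

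The motif begins 23 bases before the start site in Top2a, with another match 179 bases before it, 19 bases before it in Kif11, and 98 and 116 bases before it in Mki67. Searched on both strands in the window from 250 bases before to 50 after the start site, TTTGAA occurred in 12 of the 27 cell cycle genes with a promoter in the table (44.4%) and in 18 of 26 genes called lower in wild type (69.2%). It occurred in 2350 of 14331 tested genes with a promoter (16.4%) and in 5466 of all 27025 genes of the table (20.2%). The E-box CACGTG, searched in the same way, occurred in 2 of those 26 (7.69%) and in 9.84% of tested genes. A match describes the letters of the window and is no evidence of binding.

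Mki67, the proliferation antigen Ki-67, had the largest genotype difference within the cell cycle list. It read 8.57, 8.24 and 9.63 at 4 weeks and 8.13, 8.08, 8.44 and 8.71 at 8 weeks in ob/ob, with overlap, a difference of -0.47 ± 0.33 (95% interval -1.15 to 0.20). It was -0.067 without replicate 3 of 4 weeks and -0.76 without replicate 2. In wild type it read 9.91, 9.50 and 8.63 and then 6.76, 7.11, 7.10 and 8.06, and fell by 2.09 ± 0.33 (limma adjusted p = 0.00426). The genotype difference was 1.61 ± 0.47 (limma adjusted p = 0.9999). Kif11, a motor of the mitotic spindle, read 6.73, 6.76 and 7.05 and then 6.24, 6.22, 6.48 and 6.56 in ob/ob, without overlap (-0.47 ± 0.14), and fell by 0.91 ± 0.14 in wild type (limma adjusted p = 0.00426). Prc1, which bundles the central spindle, differed by -0.43 ± 0.13 in ob/ob and fell by 0.82 ± 0.13 in wild type, and Top2a, the topoisomerase of dividing cells, differed by -0.34 ± 0.15 and fell by 0.94 ± 0.15 (limma adjusted p = 0.00426 for both in wild type). Without replicate 3 of 4 weeks the ob/ob differences of Prc1 and Top2a were -0.29 and -0.23. The 7 tested replication licensing genes ranged in ob/ob from -0.23 for Mcm6 to 0.13 for Mcm3, with Cdc6, Mcm2, Mcm5, Cdt1 and Mcm4 at -0.03, 0.01, 0.02, 0.05 and 0.10.

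The genotype difference was positive for 30 of the 32 cell cycle genes, with a median of 0.27, and 0 of them passed the test. Over all tested genes, 32 fell in wild type, 10 of them members of the list, and their median was -0.74 there. They were chosen by their fall in wild type, which by itself favours a larger size there than in ob/ob. Their 2 medians are therefore not a comparison of the genotypes. In ob/ob, 30 of the 32 were negative, the median was -0.27 and 17 had an unadjusted p under 0.05 on the low side, where 2.23% of all genes did. The ob/ob arrays shared in the estimate of spread behind the wild-type calls. Arhgap11a, a mitotic GTPase activator, fell by 0.89 ± 0.13 in wild type (limma adjusted p = 0.00349) and differed by -0.19 ± 0.13 in ob/ob, and Ckap2, a spindle protein, fell by 0.75 ± 0.15 (limma adjusted p = 0.0258) and differed by 0.01 ± 0.15. The wild-type calls rest on the estimate of spread and on single arrays. With only the arrays compared none of the 34 was called, and so none of the 10 cell cycle genes. Without wild-type 4 week replicate 1 they were 9 instead of 34, and no cell cycle gene of the list was called. The ob/ob median was -0.19 to -0.09 over all settings.

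**Figure D5:**
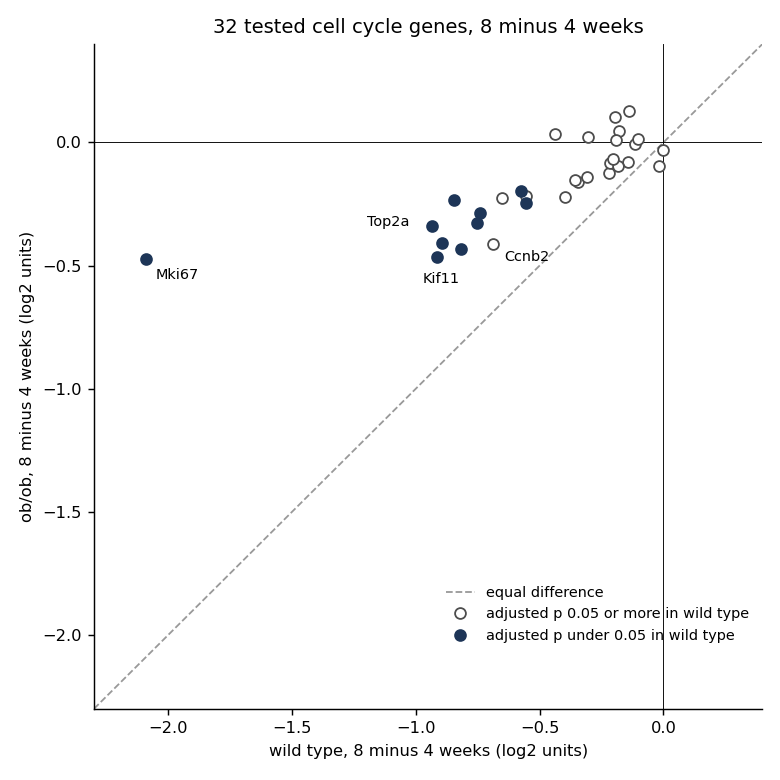
The 8 minus 4 week difference in log2 units of 32 tested cell cycle genes in wild type (x axis) and ob/ob (y axis), 1 point per gene, filled where the limma adjusted p in wild type was under 0.05. The dashed line marks equal differences: 30 genes lie above it, with Mki67 at -2.09 in wild type and -0.47 in ob/ob.

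Distal nephron and collecting duct genes were the list on which the genotypes lay furthest apart. In ob/ob, 18 of 21 were negative, with a median of -0.24 (-0.12 without replicate 3 of 4 weeks). In wild type all 21 were positive, with a median of 0.80. Neither set had a member that passed, and the genotype difference was negative for all 21 with none called. The array means were 11.50, 11.63 and 11.83 at 4 weeks and 11.67, 11.30, 11.39 and 11.32 at 8 weeks in ob/ob, and they overlapped. The wild-type arrays of 4 weeks read 11.21, 12.44 and 11.54, wider apart than the 8 week arrays at 12.33 to 12.69. Slc12a3, the thiazide-sensitive sodium chloride transporter, read 15.88, 15.78 and 16.22 and then 15.47, 15.09, 15.38 and 14.87 in ob/ob (-0.76 ± 0.38), against 0.74 ± 0.38 in wild type. Scnn1a, a subunit of the epithelial sodium channel, differed by -0.50 ± 0.41 and 1.06 ± 0.41. These genes mark tubule carried over with the glomeruli. How much of the list's difference came from the amount of tubule in each preparation was not tested.

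The kallikrein and kinin genes, many of which are expressed in the distal tubule, had the same signs as that list. Klk1b24, a tissue kallikrein, had the smallest p for a genotype difference among genes with an established name. It read 8.69, 8.73 and 8.90 at 4 weeks and 8.30, 8.01, 7.62 and 7.74 at 8 weeks in ob/ob, without overlap (-0.86 ± 0.24), while in wild type the 3 arrays of 4 weeks, at 7.94 to 8.35, lay below those of 8 weeks (0.66 ± 0.24). The genotype difference was -1.52 ± 0.34 (limma adjusted p = 0.9999). All 10 tested Klk1b genes were negative in ob/ob and positive in wild type, with medians of -0.58 and 0.63. These genes are near-identical copies, so their probe sets may read the same RNA and they do not count as 10 separate observations. Kng1 and Kng2, the kininogens from which kallikreins release kinins, differed by -0.62 ± 0.24 and -0.77 ± 0.31 in ob/ob and by 0.42 ± 0.24 and 0.59 ± 0.31 in wild type. Casr, which is also a gene of the thick ascending limb, had a genotype difference of -1.45 ± 0.52. Hoxd8, a homeobox gene of the posterior body, differed by -0.37 ± 0.14 and 0.40 ± 0.14, a genotype difference of -0.78 ± 0.20. None passed over all genes (limma adjusted p = 0.9999 for each of these 4).

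Of the other lists, none had a median beyond 0.1 log2 units in ob/ob. This covers complement (0.02, 11 genes), lymphocyte (-0.02, 10 genes), erythroid (-0.06, 3 genes), glycolysis and hypoxia response (0.02, 22 genes), immediate early genes (0.09, 21 genes), insulin, IGF and leptin signalling (0.06, 23 genes), renin-angiotensin and vasoactive genes (0.09, 23 genes), oxidative stress and NRF2 targets (0.07, 21 genes), unfolded protein response (-0.06, 23 genes), circadian clock (0.03, 17 genes), and fetal growth and nephron progenitor genes (-0.06, 24 genes). The lymphocyte array means were 5.20 to 5.51 in the ob/ob arrays, below the intron control medians, where a difference may not be seen. Lepr, the leptin receptor, differed by -0.08 ± 0.20, and Lep by 0.10 ± 0.16. In all, the array means of 7 of the 33 lists did not overlap between the ages in ob/ob: mesangial, fibrosis, inflammatory, interferon and injury genes on the high side, and cell cycle and lipid synthesis genes on the low side. In wild type 2 of 33 did not, cell cycle genes on the low side and adipocyte genes on the high side. Of single genes, 3.86% lay without overlap on the high side and 4.17% on the low side in ob/ob. That share was not taken for wild type, and a list mean is another measure than a single gene. The counts of 7 and 2 lists therefore do not show that the genotypes differ. Some lists share members, such as Vcam1 and Lcn2 in the injury and inflammatory lists, so the lists are not separate observations.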

How the data were processed

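The authors deposited log2 signals that, per the submitters' processing notes, came from RMA in Affymetrix Expression Console 1.4. Further settings were not stated. The deposited log2 values were taken as they were. Of 65956 transcript clusters, 30604 had 1 gene symbol in the platform annotation, giving 30142 genes, each read by its brightest probe set. A gene was tested if its log2 signal reached 5 on 3 or more arrays, which left 24099. Of these, 398 share identical values with another gene.

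Group means of all 30 arrays were modelled in limma 3.58.1 under R 4.3.3 (residual df 22, prior df 3.16, median residual SD 0.20), with contrasts for 8 minus 4 weeks in ob/ob, in wild type, and for the difference of both. Benjamini-Hochberg adjustment ran over all tested genes, with 0.05 as threshold. The code was tested on simulated data. The number of arrays limits the precision.

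Gene lists, comparisons and members were chosen with earlier results of these data known. The rule for naming genes took the largest changes past the threshold, over all genes and per list, and a set always named. Since none passed, it left 13 of the always-named genes. Further genes, 75 in all with these, were chosen after their values were seen, by the smallest p over all genes, in the genotype difference and in each list, and others to describe a list. Lists are described by counts and medians, without a test. Promoters came from RefSeq (GRCm38.p6). Alternatives were other filters, scalings, array sets, weights, covariates, probe set means, a size threshold, a replicate block, and leaving out single arrays.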

Additional observations from a re-analysis of the deposited data

Results flagged for a closer look

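Among 75 named genes and 33 list means in the 4 ob/ob arrays of 8 weeks, 7 had 1 array far from the other 3 by Dixon's criterion, where chance gives about 1 in 20. Des was 8.98 in replicate 3 against 8.08 to 8.10, Sele 6.92 in replicate 3 against 5.68 to 5.86, and the mean of inflammatory cytokine and adhesion genes 6.94 in replicate 3 against 6.59 to 6.64. Ckap2 was 6.03 in replicate 2 against 5.72 in the others, and Dpysl3 7.83 in replicate 2 against 8.17 to 8.21. The means of amino acid transporters and of organic ion and drug transporters were 11.08 and 10.98 in replicate 4, against 10.82 to 10.83 and 10.55 to 10.59. Replicate 4 also had the highest median of intron controls, 6.26 against 6.05 to 6.07. Xist, examined after its values had been seen, was 7.66 in ob/ob 8 week replicate 1 against 15.21 to 15.83 in the others of its group, and 8.17 in wild-type 8 week replicate 3 against 15.03 to 15.49. Both arrays also had the lowest Eif2s3x, 13.12 and 12.62 against 13.57 to 14.13 in the other 12 arrays of 4 and 8 weeks, and Kdm5c, 9.68 and 9.83 against 10.04 to 10.70. The X-linked gene Ddx3x was lowest in the wild-type array, at 14.02. In the ob/ob array it read 14.78, inside the 14.70 to 15.25 of the other 12. Without ob/ob 8 week replicate 1, 1 gene passed in ob/ob, the predicted small nuclear RNA Gm24285 (0.96 log2 units, limma adjusted p = 0.0418).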

How the results depend on the processing

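The count of genes past the threshold was 0 in ob/ob with the replicate block as without it, 16 with array weights, 1 with the control separation and 1 with proximal tubule signal as covariate, and 0 to 1 with 1 array left out. In wild type it was 34, and 0 with only the arrays compared, 62 with cyclic loess, 60 with array weights, 4 with a difference of at least 1, 22 with the replicate block and 9 to 37 with 1 array left out (9, 14, 16, 20 and 22 without 4 week replicates 1 and 2 and 8 week replicates 1, 2 and 3). The genotype difference gave 0 under each setting run. Same-numbered ob/ob arrays of the ages correlated at 0.105, -0.171 and -0.172 in their deviations, where the other pairs spanned -0.451 to 0.309. With so few same-numbered pairs, these values cannot show whether the numbers mark a shared batch. Of 1710 values of named genes, 1685 kept their sign and side of the threshold, 10 passed it and 15 turned sign: Nid2 to -0.0082 with array weights, Slc34a1 and Slc5a2 to 0.11 and 0.073 with cyclic loess, and others with 1 array left out, over ranges of -0.067 to 0.039 for Ckap2, -0.32 to 0.62 for Cyp27b1, -0.074 to 0.0033 for Havcr1, -0.0063 to 0.17 for Lep, -0.11 to 0.012 for Slc5a2 and -0.10 to 0.25 for Wt1. The causes were not tested. Of 627 list medians, 13 moved. Scalings shifted the median of all genes to between -0.02 and 0.01.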

Other observations

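Outside the lists, retinaldehyde dehydrogenase Aldh1a1, which makes retinoic acid, read 7.35, 7.33 and 7.40 at 4 weeks and 9.17, 8.23, 9.21 and 9.80 at 8 weeks in ob/ob, without overlap (1.75 ± 0.47, wild type 1.30 ± 0.47). Dio1, which activates thyroid hormone, differed by -1.50 against a wild-type value of -0.95, and Serpina6, the corticosteroid carrier, by -1.78 and -2.19. None of the 3 genes passed in ob/ob with limma. All were chosen after their values were seen.

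The 7 tested Ugt1a and Ugt2b genes, glucuronosyltransferases whose probe sets may read each other's RNA, all had positive ob/ob differences, with a median of 0.25, as had 6 of them in wild type. Of 23 tested replication-dependent histone genes, 18 had negative ob/ob differences and 19 negative wild-type differences, with medians of -0.18 and -0.19. Among 25 Hox genes, 15 were negative in ob/ob and 19 positive in wild type.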
